A study of Mus musculus with 3 samples.

Results

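The genes described here encode the subunits of the hypoxia-inducible factors (HIF) and the enzymes that sense oxygen for them. They were 10 genes chosen by name: the alpha subunits *Hif1a*, *Epas1* and *Hif3a*, the beta subunits *Arnt* and *Arnt2*, the prolyl hydroxylases *Egln1*, *Egln2* and *Egln3*, the ubiquitin ligase subunit *Vhl*, and the asparaginyl hydroxylase *Hif1an*. Their transcript accessions matched 14 probes, out of 32994 probes with a gene name that covered 22911 genes on the array. All 10 genes had at least 1 probe. Probes whose accession matched no gene name are not used here, and some of them may read these genes too.

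HIF is a transcription factor made of an oxygen-regulated alpha subunit and a constitutive beta subunit. With oxygen present, the prolyl hydroxylases modify the alpha subunit, the VHL ubiquitin ligase binds the modified form, and the proteasome degrades it. The asparaginyl hydroxylase FIH, encoded by *Hif1an*, blocks the binding of coactivators to the alpha subunit. Because most of this control acts on the protein, mRNA levels describe the supply of the components and not the activity of the pathway.

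Gene expression was measured with single-colour arrays in Colon26 cells, a murine colon adenocarcinoma line, and in LuM1 and NM11 cells, the high-metastatic and the low-metastatic subline of Colon26. The labels give strain BALB/c and sex female for all lines, and no line carried a transgene, knockdown or drug treatment according to the labels. Each line was grown for 3 days in serum-containing RPMI1640 and contributed 1 array, 3 arrays in all. There was therefore no replicate check, no test between lines could be run, and precision is limited by the number of arrays.

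Signals are background-subtracted spot intensities scaled so that the 75th percentile of the probes on each array was 400.0. The error given after ± is the scanner software's error for the spot. It covers technical error within an array only and not the scaling between arrays. A ratio beyond this error can therefore still turn with the scaling. A probe marked as well above background was taken as measured. Where a probe was not, its ratio is a bound, computed with its own signal or, if that was larger, the array's lowest signal marked well above background. On the Colon26 array that floor stood at 26.4, and on the LuM1 and NM11 arrays at 19.8 and 19.9. Of 56605 probes, 49.9% to 53.8% were well above background on each array and none was saturated. LuM1 over Colon26, LuM1 over NM11 and NM11 over Colon26 share arrays with one another, so a high value on one array enters 2 of these ratios. Signals of different probes have no common scale, so levels are compared between lines within a gene and never between genes.

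The labelled origin was checked against cell type markers. Of 12 markers of colon epithelium, 4 were well above background in Colon26 cells, 5 in LuM1 cells and 4 in NM11 cells. *Krt8*, *Krt20*, *Cdx2* and *Cldn7* were well above background on every array, among them the colon transcription factor *Cdx2* at 442 in Colon26 cells, 228 in LuM1 cells and 170 in NM11 cells and the keratin *Krt20* at 650, 53.8 and 160. *Cdh1*, *Krt18*, *Krt19*, *Vil1*, *Cdx1*, *Cldn3* and *Cldn4* were not on any array, and *Epcam* was in LuM1 cells alone, at a scaled signal of 27.6. Of 8 fibroblast markers, 7 were well above background in Colon26 cells and 8 in each subline. The lines are called by their names.

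In the alpha subunits, 2 of 3 genes had their highest signal in LuM1 cells. *Hif1a*, which encodes HIF-1α, was measured in all lines. *Epas1*, which encodes HIF-2α, was measured in LuM1 cells alone. *Hif3a*, whose product can oppose the other alpha subunits, was not well above background on any array.

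The *Hif1a* probe named by its accession (A_55_P2936147, for RefSeq transcript NM_010431) read 3999 ± 400 in Colon26 cells, 10524 ± 1052 in LuM1 cells and 5323 ± 532 in NM11 cells. LuM1 cells thus stood highest, NM11 cells next and Colon26 cells lowest, and both steps exceeded the scanner error. The mRNA level of *Hif1a* was 2.63-fold that of Colon26 cells in LuM1 cells (log2 ratio 1.40, scanner error 0.20). Against NM11 cells the LuM1 level was 1.98-fold higher (log2 ratio 0.98), which lay just under the 2-fold threshold used for counting. NM11 over Colon26 was 1.33-fold, and this direction turned when the arrays were scaled to the housekeeping gene *Hprt* (log2 ratio 0.41 against -0.10). *Hprt* itself was 11080 in Colon26 cells, 10207 in LuM1 cells and 15822 in NM11 cells.

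The *Epas1* probe (A_51_P250058, NM_010137) read 14.9 ± 6.0 in Colon26 cells, 2878 ± 288 in LuM1 cells and 4.35 ± 4.37 in NM11 cells, where the software gives about its error in place of a signal. The LuM1 signal was therefore far above background, and neither other line had a signal well above it. LuM1 cells thus exceeded Colon26 cells at least 109-fold and NM11 cells at least 145-fold. No ratio was formed between NM11 and Colon26 cells.

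*Epas1* is known for its expression in endothelial cells and is also found in macrophages, so the markers of both were read beside it. Of 7 endothelial markers, *Cdh5*, *Kdr*, *Tek*, *Tie1*, *Cldn5* and *Emcn* were not well above background on any array. *Pecam1* was at 51.2 in Colon26 cells, 52.2 in LuM1 cells and 79.5 in NM11 cells. The summed signal of the endothelial list, much of it from probes not well above background, was 86.0, 81.8 and 108.7 in the same order. Of 7 leukocyte markers, 4 were well above background in Colon26 cells, 5 in LuM1 cells and 4 in NM11 cells. Their summed signals were 6525, 13147 and 5902, and most of the excess in LuM1 cells came from *Cd68*. These sums, like that of the endothelial list, add probes without a common scale. The pan-leukocyte gene *Ptprc* and the macrophage gene *Adgre1* were not well above background on any array. The myeloid genes *Itgam* (5018, 6722 and 4319) and *Csf1r* (681, 681 and 686) were well above it in all lines, as was the T cell gene *Cd3e* (626, 502 and 562). *Cd68*, a lysosomal protein of macrophages, moved with *Epas1*, at 172 in Colon26 cells, 5178 in LuM1 cells and 304 in NM11 cells. Its part in the *Epas1* result was not tested. In bulk RNA, a change in the share of cells that express a gene and a change in RNA per cell cannot be told apart.

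Both *Hif3a* probes stayed near background. Probe A_52_P288284 read 6.17 in Colon26 cells, 11 in LuM1 cells and 5.25 in NM11 cells. Probe A_55_P2015541 read 5.96, 4.33 and 8.32 in the same order. No ratio was formed, and a difference between the lines was not detectable at these signals.

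**Figure D1:**
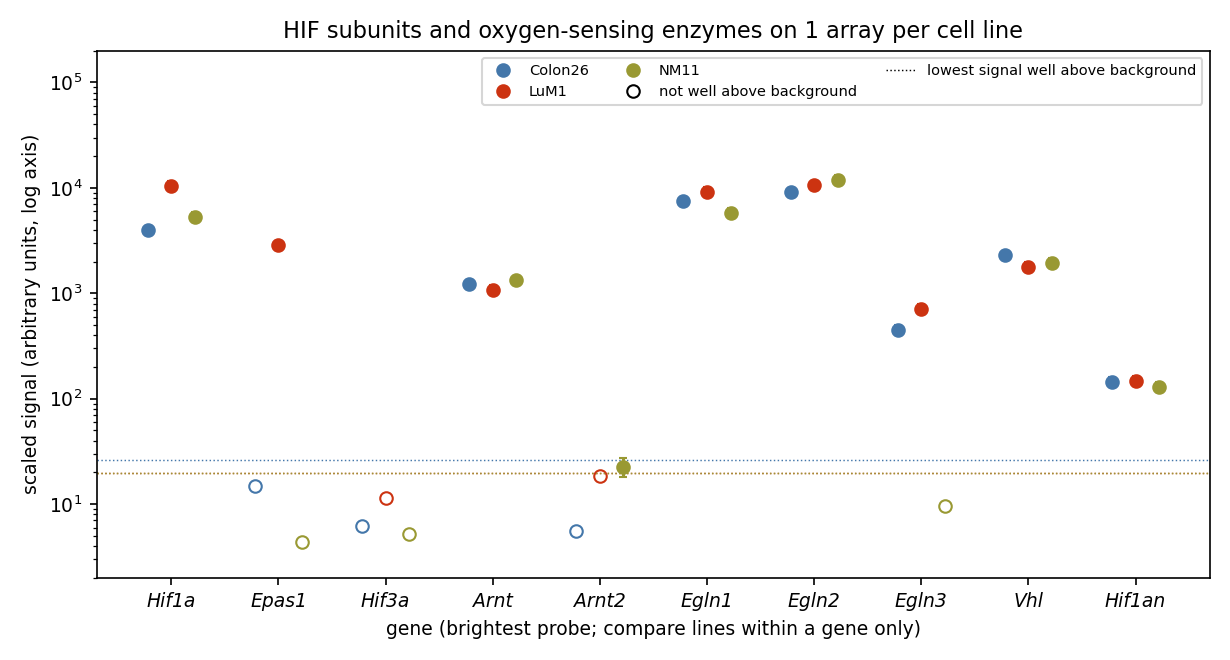
Scaled signal (log axis) of the brightest probe of each gene on the Colon26, LuM1 and NM11 arrays. Filled circles are well above background with the scanner error as bars (mostly smaller than the symbol), open circles are not, and dotted lines mark the lowest signal well above background on each array. *Epas1* is filled in LuM1 cells alone at 2878, and *Egln3* is filled in Colon26 and LuM1 cells but open in NM11 cells at 9.51.

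In the beta subunits, no probe had a ratio or bound of at least 2-fold. *Arnt*, which encodes the partner HIF-1β of the alpha subunits, had 2 probes that put the lines in different orders. The brighter one (A_55_P2100895, NM_001037737) read 1212 ± 121 in Colon26 cells, 1080 ± 108 in LuM1 cells and 1332 ± 133 in NM11 cells. Neighbouring lines in that order differed by less than the scanner error. The dimmer one (A_55_P2814820) read 135 ± 14.8, 190 ± 19.5 and 97.5 ± 10.7 in the same order of lines, with LuM1 cells highest and NM11 cells lowest. LuM1 over NM11 was thus -0.30 on the log2 scale by the brighter probe and 0.96 by the dimmer one. Which transcripts of *Arnt* each probe reads was not analysed here, so no direction is given for this gene.

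*Arnt2*, a paralog of *Arnt* known mainly from the nervous system, stayed close to background. Its probe (A_52_P260696, NM_007488) read 5.56 ± 5.58 in Colon26 cells, 18.5 ± 4.63 in LuM1 cells and 22.7 ± 4.75 in NM11 cells. It was well above background in NM11 cells alone, and the bound for LuM1 over NM11 was a log2 ratio of at most -0.20, smaller than its scanner error of 0.30.

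Among the prolyl hydroxylases, *Egln3* differed most between the lines, while *Egln1* and *Egln2* were measured in all lines and stayed within 2-fold. *Egln3* encodes PHD3, and *Egln1* encodes PHD2, the main enzyme that marks HIF-1α for degradation. Both genes are also known targets of HIF, which makes them part of a feedback loop. *Egln2* encodes PHD1 and is not known as a hypoxia-induced gene.

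The *Egln3* probe (A_52_P387009, NM_028133) read 450 ± 45.4 in Colon26 cells, 713 ± 71.5 in LuM1 cells and 9.51 ± 4.44 in NM11 cells. NM11 cells were thus the only line without a signal well above background. LuM1 cells exceeded them at least 35.9-fold. NM11 cells stood at least 22.6-fold lower than Colon26 cells. LuM1 over Colon26 was 1.58-fold, a log2 ratio of 0.66 that exceeded the scanner error.

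The *Egln1* probe (A_55_P2778161, NM_053207) read 7446 ± 745 in Colon26 cells, 9191 ± 919 in LuM1 cells and 5814 ± 581 in NM11 cells. LuM1 cells were highest and NM11 cells lowest, the same order as for *Egln3*, and both steps exceeded the scanner error. The log2 ratio was 0.66 for LuM1 over NM11 and 0.30 for LuM1 over Colon26, and for NM11 over Colon26 it was -0.36. These 3 directions held under each alternative setting in which they were recomputed.

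*Egln2* did not follow this order. Its brighter probe (A_55_P1960924, NM_053208) read 9071 ± 907 in Colon26 cells, 10680 ± 1068 in LuM1 cells and 11959 ± 1196 in NM11 cells. Its other probe (A_55_P2005330) read 1360, 1590 and 1757 in the same order. Both probes put Colon26 cells lowest, and NM11 and LuM1 cells differed by less than the scanner error. NM11 over Colon26 was 0.40 by the brighter probe and 0.37 by the other, and scaling to *Hprt* turned the value of the brighter one to -0.12.

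*Vhl*, the substrate receptor of the ligase, had its highest signal in Colon26 cells. Its probe (A_66_P106593, NM_009507) read 2288 ± 229 in Colon26 cells, 1793 ± 179 in LuM1 cells and 1946 ± 195 in NM11 cells. The step from Colon26 to NM11 cells exceeded the scanner error and that from NM11 to LuM1 cells did not. LuM1 over Colon26 was -0.35 on the log2 scale, and in the processed values deposited for the series, which carry another scaling, it was 0.11.

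*Hif1an* was the flattest gene by its brighter probe (A_51_P521171, NM_176958), at 145 ± 15.5 in Colon26 cells, 148 ± 15.4 in LuM1 cells and 130 ± 13.6 in NM11 cells. No pair of neighbouring lines differed beyond the scanner error. A dimmer probe (A_52_P49233) read 46.5, 68.9 and 53.3 in the same order, with a log2 ratio of 0.57 for LuM1 over Colon26.

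Counted together, 2 of 8 genes with a ratio or bound had a LuM1 level at least 2-fold above that of Colon26 cells (*Hif1a* and *Epas1*) and 0 of 8 were at least 2-fold lower. Over all genes the shares were 12.9% higher and 12.2% lower. For LuM1 over NM11, 2 of 9 were higher (*Epas1* and *Egln3*) and 0 of 9 lower, beside 10.6% and 9.42% of all genes. For NM11 over Colon26, 0 of 7 were higher and 1 of 7 lower (*Egln3*), beside 8.65% and 7.56%. *Epas1* was the one gene of the 10 whose LuM1 level was at least 2-fold above each other line, as was that of 7.63% of all genes. *Egln3* was the one gene at least 2-fold lower in NM11 cells than in both other lines, as were 2.14% of all genes. With so few genes, 1 or 2 calls are near these background shares, and the counts say little beyond the genes named.

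Of the genes measured on both arrays, 5 of 7 were within 1.5-fold for LuM1 over Colon26, 4 of 6 for LuM1 over NM11 and 6 of 6 for NM11 over Colon26. Over all genes the shares within 1.5-fold were 59.0%, 63.3% and 72.1%, so with 6 or 7 genes nothing is read from these counts. The median log2 ratio of the measured genes was 0.24 for LuM1 over Colon26, 0.03 for LuM1 over NM11 and -0.01 for NM11 over Colon26, against -0.15, -0.15 and 0.00 over all measured genes. These medians leave out *Epas1* in every comparison and *Egln3* in those with NM11, because bounds have no exact value. *Arnt* enters the counts and medians by its brighter probe alone, and its dimmer probe gave 0.96 for LuM1 over NM11.

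**Figure D2:**
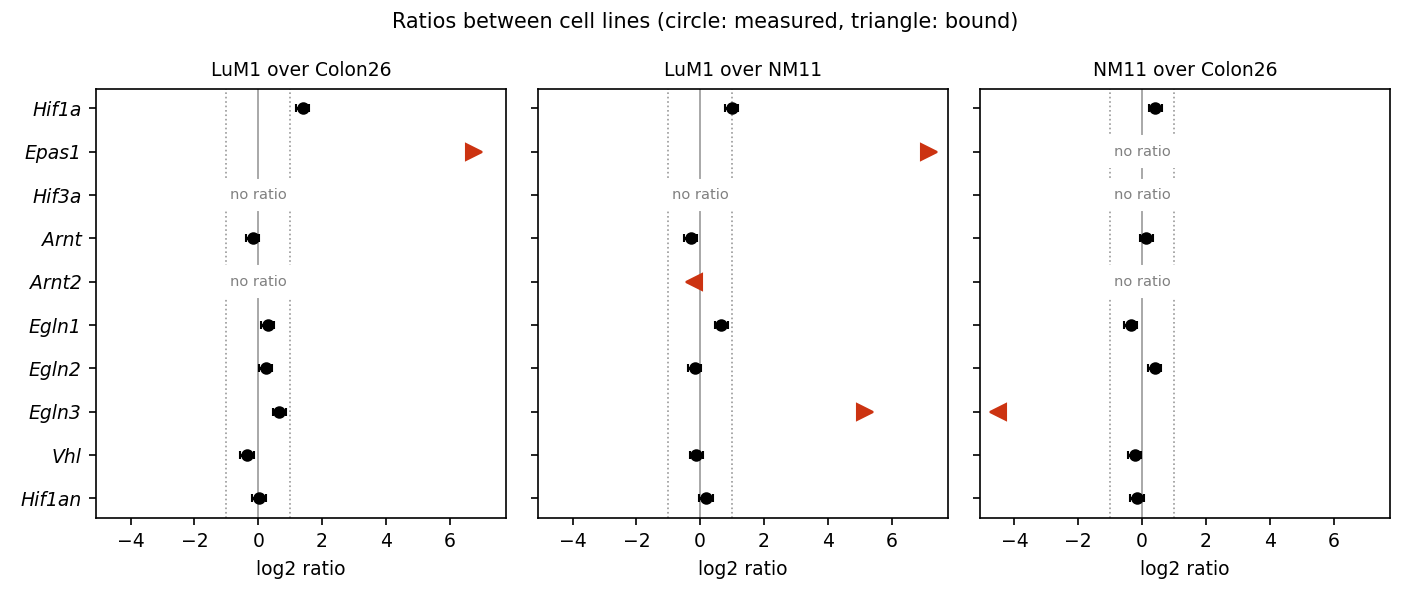
Log2 ratios of the 10 genes (brightest probe) in the 3 comparisons. Circles are measured ratios with the scanner error as bars, triangles are bounds that point in the direction of the true value, and dotted lines mark 2-fold. *Epas1* has a bound of 6.77 over Colon26 and 7.18 over NM11, *Egln3* has bounds of 5.16 and -4.50 in the comparisons with NM11, and the other circles apart from *Hif1a* lie inside the dotted lines.

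**Figure D3:**
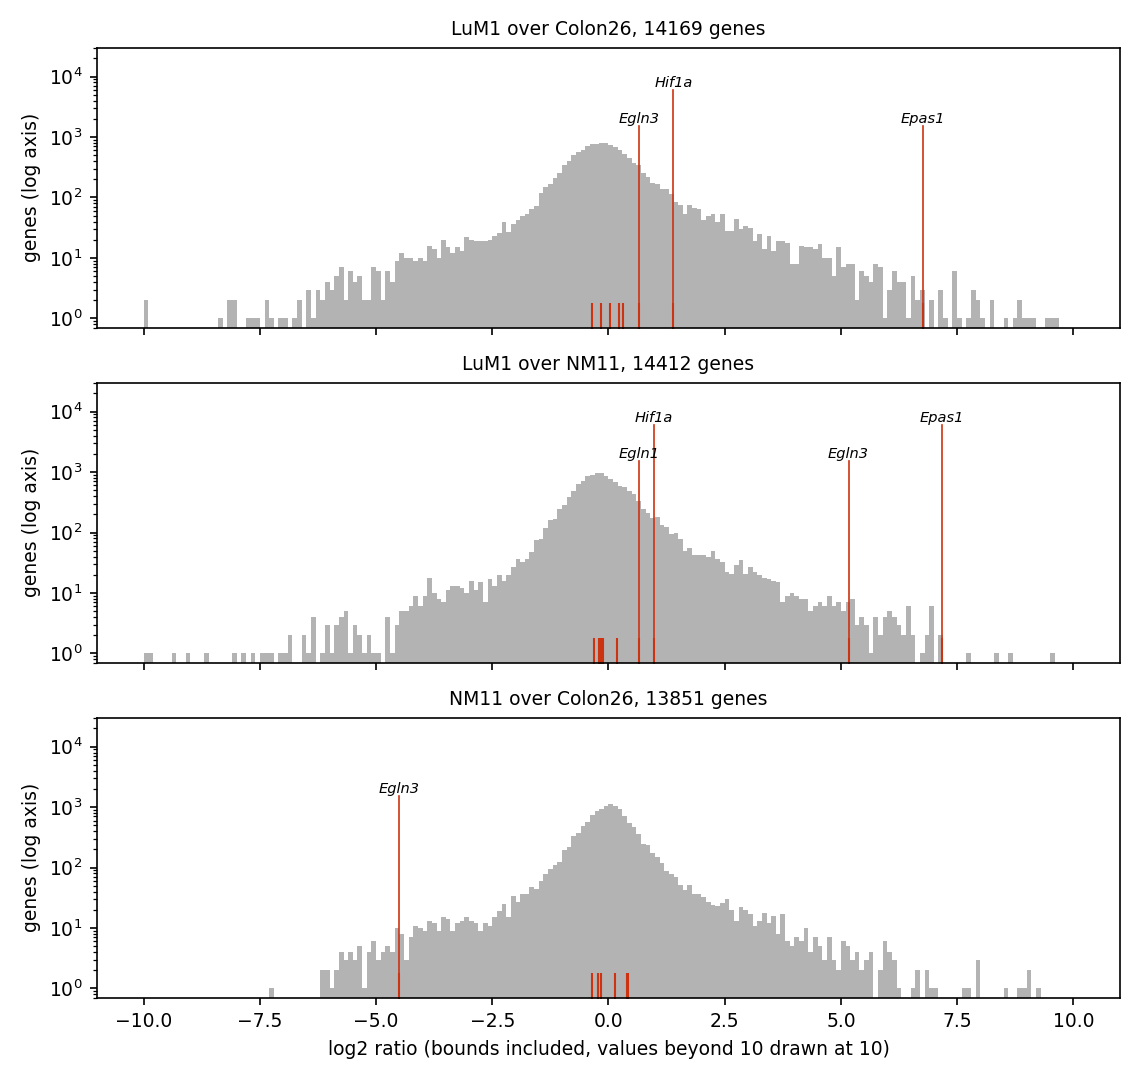
Histogram of the log2 ratios of all genes with a ratio or bound in each comparison (gene counts on a log axis, bins of 0.1), with the HIF and oxygen-sensing genes as red ticks and those at least 1.5-fold apart named. *Epas1* lies in the upper tail for both comparisons of LuM1, and *Egln3* in the lower tail for NM11 over Colon26.

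Scaling bears on these ratios, since a shift between arrays moves all genes. Scaling to *Hprt* in place of the 75th percentile shifted the median of all genes by 0.12 for LuM1 over Colon26, 0.63 for LuM1 over NM11 and -0.51 for NM11 over Colon26, and the deposited processed values shifted the first 2 by 0.46 each. Of the genes at least 2-fold apart, 51.3% were higher in LuM1 than in Colon26 cells, against 77.7% in the deposited processed values and 61.5% when scaled to the 75th percentile of detected probes. For LuM1 over NM11 the share was 53.1%, against 68.6% without scaling, 67.6% scaled to the 75th percentile of detected probes, 87.8% scaled to *Hprt*, 77.2% scaled to the E1A spike-in controls and 81.4% in the deposited values. For NM11 over Colon26 it was 53.4%, against 20.1% with *Hprt* and 29.0% with E1A. *Epas1* and *Egln3* differ by more than these shifts, and the ratio of *Hif1a* over Colon26 ranged from 2.59-fold to 3.63-fold over the settings. The ratios of *Hif1a* and *Egln1* for LuM1 over NM11 kept their sign in all 15 settings, while those of *Egln2* and *Vhl* changed sign in 6 of 15 settings each.

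Promoter sequence is shown for the measured genes with the clearest difference, *Hif1a* and *Egln3*, and for *Egln2*, whose window held the most matches to the HIF core motif although its levels stayed within 2-fold. The windows are 300 bases from RefSeq on build GRCm38.p6, with 250 before and 50 after a transcript start listed for the gene, written 5′ to 3′ on the gene's strand. Matches to ACGTG or GCGTG on either strand are in capitals, and the palindrome CACGTG, which holds ACGTG on both strands, was counted as 1 match. They lie at chr12:73907617-73907916 on the plus strand for *Hif1a*, chr12:54203825-54204124 on the minus strand for *Egln3* and chr7:27166753-27167052 on the minus strand for *Egln2*.
Hif1a: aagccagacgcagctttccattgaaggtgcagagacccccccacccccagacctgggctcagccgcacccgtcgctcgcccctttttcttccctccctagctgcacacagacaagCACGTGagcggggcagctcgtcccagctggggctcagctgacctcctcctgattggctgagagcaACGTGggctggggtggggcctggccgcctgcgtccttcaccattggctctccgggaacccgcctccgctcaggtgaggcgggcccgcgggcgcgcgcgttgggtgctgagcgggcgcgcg
Egln3: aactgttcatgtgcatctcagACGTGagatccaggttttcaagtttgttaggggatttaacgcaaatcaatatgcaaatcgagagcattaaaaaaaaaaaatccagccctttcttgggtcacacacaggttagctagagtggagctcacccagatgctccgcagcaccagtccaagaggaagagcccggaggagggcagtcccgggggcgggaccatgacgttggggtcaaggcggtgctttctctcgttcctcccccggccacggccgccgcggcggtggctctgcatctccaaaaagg
Egln2: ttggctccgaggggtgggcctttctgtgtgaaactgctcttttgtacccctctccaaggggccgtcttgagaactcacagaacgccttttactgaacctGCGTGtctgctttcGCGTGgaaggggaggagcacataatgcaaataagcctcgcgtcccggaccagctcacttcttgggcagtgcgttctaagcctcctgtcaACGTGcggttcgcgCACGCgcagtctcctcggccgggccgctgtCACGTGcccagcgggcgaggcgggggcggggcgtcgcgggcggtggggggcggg
The *Hif1a* window held 2 matches, which begin 135 and 70 bases before the start. The *Egln3* window held 1 match, which begins 229 bases before the start. The *Egln2* window held 5, the last of them a CACGTG 4 bases before the start, and 0.935% of promoters held as many or more. A second *Egln2* start had a window with 1 match. Of 10 windows for 9 of the genes, 7 held at least 1 match, from 6 genes, and 43.8% of 32851 promoters did. Both strings contain a C followed by a G (CpG). The printed windows held 25 (*Hif1a*), 16 (*Egln3*) and 29 (*Egln2*) CpG, and the second *Egln2* window 4, beside a median of 7 over all promoters. Matches were not compared with promoters of like CpG content, so nothing is read from these shares. *Egln1* and *Hif3a* had 2 matches each and *Arnt* had 1, while those of *Arnt2*, *Hif1an* and *Vhl* had 0. *Epas1* is not in the table used. A match is a string of letters and no measurement of binding, and 5-letter strings are common.

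Genes around the pathway were read from 5 lists with 85 genes, none of them among the 10. Their counts stand beside the shares of all genes at least 2-fold apart. For LuM1 over Colon26 these were 12.9% higher and 12.2% lower. They were 10.6% and 9.42% for LuM1 over NM11, and 8.65% and 7.56% for NM11 over Colon26. The median log2 ratio over all measured genes was -0.15, -0.15 and 0.00 in these comparisons. With so few genes in a list, little is read from its counts. The first list held 8 genes, partners of the VHL ligase, the complex that binds hydroxylated HIF-α, and subunits of related cullin ligases. For LuM1 over Colon26, 0 of 8 were at least 2-fold apart. In LuM1 over NM11, 1 was lower: *Cul5*, a cullin of related ligases, at a log2 ratio of -1.05. None was apart for NM11 over Colon26. *Elob*, the elongin B subunit, was 52337 in Colon26 cells, 33700 in LuM1 cells and 36985 in NM11 cells. *Rbx1*, the RING subunit that recruits the ubiquitin-conjugating enzyme, ran the other way, at 17922, 25350 and 26797. *Eloc*, the elongin C subunit, and *Rnf7*, a RING subunit of other cullin ligases, stayed within 2-fold in all comparisons. The median log2 ratio of the list was -0.35, -0.09 and -0.26 for LuM1 over Colon26, LuM1 over NM11 and NM11 over Colon26.

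The second list held 20 coactivators, chaperones and regulators of HIF stability, of which 19 had a ratio or bound. For LuM1 over Colon26, 2 of 19 were lower, *Siah1a* (log2 ratio -1.07) and *Siah1b* (-1.07), and none was higher. Against NM11 cells, 3 of 19 were lower, *Siah1b* (-1.27), *Siah2* (-1.17) and *Ptges3* (-1.17), and none was higher. For NM11 over Colon26 none was apart in either direction. The SIAH proteins are ubiquitin ligases that target PHD1 and PHD3, and *Ptges3* encodes the HSP90 cochaperone p23. *Siah1a* read 3491 in Colon26 cells, 1658 in LuM1 cells and 3091 in NM11 cells. *Siah2* read 3453, 2440 and 5499. All 3 Siah genes thus had their lowest signal in LuM1 cells. *Siah1a* and *Siah1b* are near-identical copies, so their probes may share signal and do not count as separate evidence. *Ep300*, a histone acetyltransferase and coactivator of HIF, and *Wsb1*, a ligase subunit that acts on VHL, were within 2-fold in all comparisons. The medians were -0.26, -0.37 and 0.01.

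The third list held 17 other enzymes that need oxygen and 2-oxoglutarate or act on oxygen-sensing substrates, of which 16 had a ratio. *Plod1*, a lysyl hydroxylase of collagen, read 932 in Colon26 cells, 2213 in LuM1 cells and 793 in NM11 cells, so it was higher in LuM1 cells than in both others (log2 ratios 1.25 and 1.48). *Plod2*, another lysyl hydroxylase and a known HIF target, read 717, 770 and 303, so NM11 cells were low (-1.24 against Colon26). *P4ha3*, a collagen prolyl hydroxylase subunit, was near background at 33.4, 71.8 and 40.9, a log2 ratio of 1.11 for LuM1 over Colon26. *Kdm4b*, a histone demethylase and known HIF target, read 2123, 2430 and 1179, and was higher in LuM1 than in NM11 cells (1.04). *P4ha2* was at 3866, 6790 and 6203, within 2-fold in every comparison. In total 2 of 16 were higher and 0 lower for LuM1 over Colon26, 3 higher and 0 lower for LuM1 over NM11, and 0 higher and 1 lower for NM11 over Colon26, with medians of 0.34, 0.12 and 0.07.

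The fourth list held 14 other genes with PAS domains, most of them of the bHLH-PAS family to which the HIF subunits belong, and 9 had a ratio. None was at least 2-fold apart for LuM1 over Colon26. Against NM11 cells, *Per3*, a clock gene, was higher (log2 ratio 1.33) and *Ahr*, the dioxin receptor that also pairs with ARNT, was lower (-1.16). For NM11 over Colon26, *Arntl*, the clock subunit BMAL1, was higher (1.11). *Arntl* read 963 in Colon26 cells, 1152 in LuM1 cells and 2075 in NM11 cells, and its partner *Clock* ran the other way at 719, 751 and 384. *Sim2* stayed within 2-fold, at 129, 204 and 141. The medians were 0.06, -0.44 and 0.22.

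The fifth list held 26 known targets of HIF, and they did not move one way. Of 24 with a ratio or bound for LuM1 over Colon26, 3 were higher and 4 lower, with a median of 0.14. Of 23 for LuM1 over NM11, 4 were higher and 3 lower, with a median of 0.30. Of 24 for NM11 over Colon26, 3 were higher and 5 lower, with a median of -0.25. Of the 21 measured on both arrays in that comparison, 16 were below 0. The medians over all measured genes were -0.15, -0.15 and 0.00 in the same order. *Car9*, the carbonic anhydrase often used as a marker of HIF activity, read 6253 in Colon26 cells, 108 in LuM1 cells and 572 in NM11 cells, so Colon26 cells exceeded LuM1 cells 57.7-fold. It thus ran against *Hif1a* and *Epas1*, which were highest in LuM1 cells. *Stc2*, a secreted glycoprotein, was 648 in Colon26 cells and not well above background in LuM1 cells (3.96) or NM11 cells (3.98). *Adm*, the vasodilator adrenomedullin, was 5.56 in Colon26 cells, 98.9 in LuM1 cells and 321 in NM11 cells. *Angptl4*, an inhibitor of lipoprotein lipase, was 11226, 3875 and 16223, with LuM1 cells lowest. The growth factor gene *Vegfa* counted as lower than in Colon26 cells in LuM1 (-1.38) and NM11 cells (-1.45), by the brightest of 4 probes. The authors reported *Vegfa* probes that moved in opposite directions between LuM1 and Colon26 cells, so its LuM1 call depends on the probe. Chosen after their values were seen, *Ankrd37* (1728, 1710 and 737) and *Pfkfb4* (467, 548 and 233) had their lowest signal in NM11 cells, as *Egln3* did. *Ankrd37* was level between LuM1 and Colon26 cells (log2 ratio -0.02), unlike *Egln3*. Several other targets of the list also had their lowest signal in NM11 cells. Others did not, and *Adm* and *Angptl4* were highest in NM11 cells. The list is read beside the 10 genes and does not measure HIF protein.

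**Figure D4:**
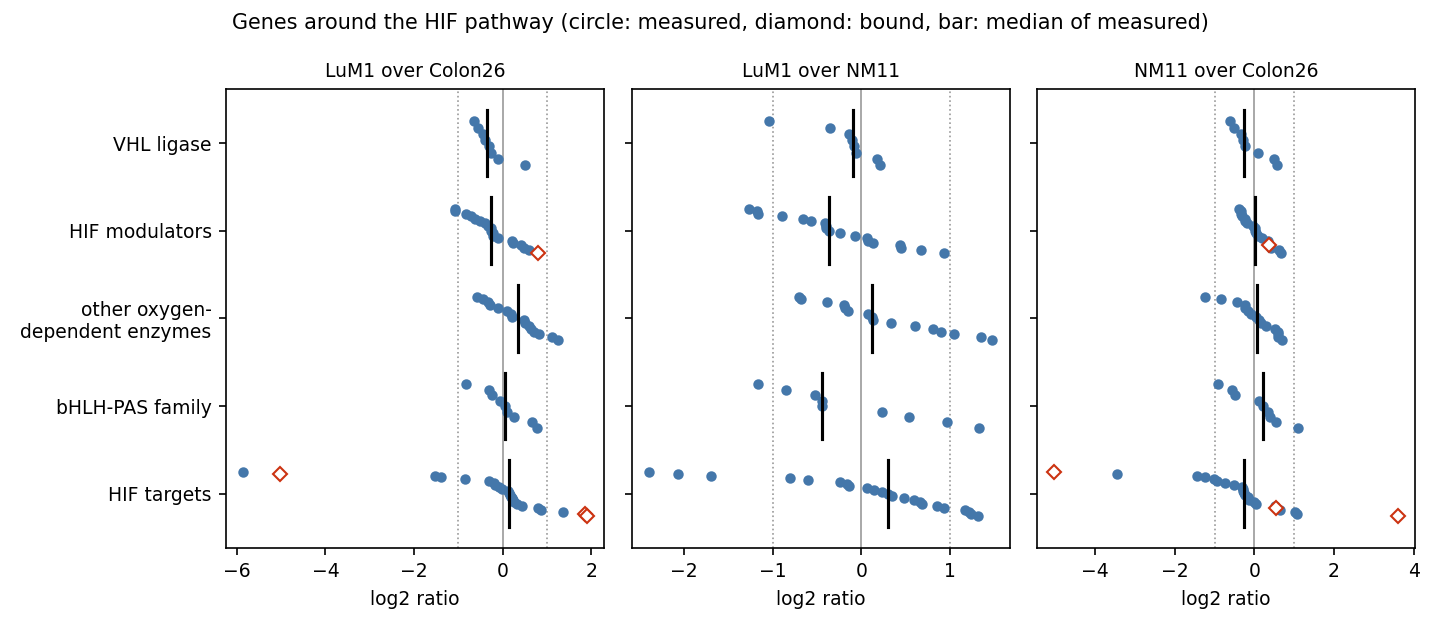
Log2 ratios of the genes of the 5 lists in the 3 comparisons, with a separate scale for each. Circles are measured ratios, diamonds are bounds, bars mark the median of the measured genes and dotted lines mark 2-fold. The HIF targets spread to both sides of 0, from *Car9* at -5.85 to *Adm* at 1.91 or more for LuM1 over Colon26. The genes of the VHL ligase list stayed inside the dotted lines apart from *Cul5*, a cullin of related ligases, in LuM1 over NM11.

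The genes whose pattern over the lines was most like that of *Hif1a* were found by the distance between their log2 ratios over Colon26, in the 12245 genes measured on every array. *Hif1a* also had the widest range over the lines of the members measured on all arrays. The nearest were *Zfp217*, *Tnfaip8*, *Nckap5l*, *Sgsm3* and *Nxn*, at distances of 0.044 to 0.064. In all, 10 genes lay within a distance of 0.1, which is smaller than the scanner error of 0.20, so the order among them carries no weight. The likeness rests on 3 arrays.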

How the data were processed

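Total RNA (0.1 µg) was labelled with Cy3 and hybridized to 1 array per line. The authors deposited intensity values per spot from Agilent Feature Extraction 11.5.1.1, per the submitters' processing notes, background-subtracted and detrended within each array and not scaled between arrays, with scanner errors and flags of 0 or 1. The processed intensity values deposited for the series equal these signals times 1 factor per array (0.654, 0.829 and 0.706 for Colon26, LuM1 and NM11). How those factors were set is not given in the sources used here.

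Here control probes and outlier spots were left out, spots of 1 probe were averaged, and signals were scaled to the 75th percentile over probes and compared as log2 ratios. The brightest probe over the arrays stood for a gene. Names came from accessions matched to RefSeq, which named 58.3% of probes. A gene was counted when its ratio or bound reached 2-fold. Scanner errors of a pair of signals were combined in quadrature. All arrays shared 1 slide and 1 scan. No test was run, with 1 array per line.

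The text names all 10 genes with their probes, of each list the 3 genes with the largest log2 ratio in either direction in each comparison, *Hprt*, and the 5 genes nearest in pattern to *Hif1a*. Cell type markers, from their own lists, *Vegfa*, named for its probes, and *Ankrd37* and *Pfkfb4*, chosen after their values were seen, are named beyond this rule. Genes and lists were chosen with earlier results of these data known. Alternatives were other scalings, background corrections, detection rules, probe choices and thresholds, and leaving out spots in spatial clusters bright on 1 array alone. No spot of the 10 genes lay in such a cluster. The 75th percentile over all non-control spots was added after seeing the data. Protein sequences were not analysed here. The values of 1 marker gene are not reported here. Python 3.11.15 (numpy 2.4.6, pandas 2.3.3, matplotlib 3.10.9) were used, with limma 3.58.1 in R 4.3.3 handling the normexp and quantile steps. The 2-fold calls for LuM1 over Colon26 were tested on simulated data. These data had no intensity shift between arrays, so they could not test the scaling to the 75th percentile. The other steps were not tested.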

Additional observations from a re-analysis of the deposited data

How the results depend on the processing

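Each ratio of the 10 genes was recomputed under the alternatives, 355 values in all. None of the 5 ratios at least 2-fold apart changed sign. The value for *Epas1*, a bound or, where the detection rule was looser or left out, a plain ratio to a dim signal, ranged from 5.03 to 7.59 on the log2 scale over Colon26 and from 5.15 to 9.37 over NM11. That for *Egln3* ranged from 3.20 to 6.23 for LuM1 over NM11 and from -5.57 to -2.61 for NM11 over Colon26. The lowest sizes came with the normexp correction, whose offset raises dim signals. *Hif1a* ranged from 1.37 to 1.86 for LuM1 over Colon26 and from 0.95 to 1.62 for LuM1 over NM11, so its call against NM11 depends on the scaling.

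For the 10 genes and the list genes, a changed count is named only where it moved by more than 1.5-fold, or to or from 0. Smaller changes are left out. Of the 10 genes, a 4-fold threshold left 1 higher for LuM1 over Colon26 in place of 2. For LuM1 over NM11, 4 in place of 2 were higher when scaled to *Hprt* or to E1A, in the deposited values, or at 1.5-fold. For NM11 over Colon26, the looser detection rule and no filter on dim probes each gave 1 higher in place of 0 and 2 lower in place of 1.

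Of the list genes, 5 were higher for LuM1 over Colon26, against 15 in the deposited values, 3 with normexp, 8 with the looser rule or no filter and 0 at 4-fold. Lower were 6, against 3 in the deposited values and 2 at 4-fold. For LuM1 over NM11, 8 were higher, against 14 without scaling, with the 75th percentile of detected probes or by quantile normalization, 23 with *Hprt*, 17 with E1A, 19 in the deposited values, 5 with normexp and 0 at 4-fold. Lower were 8, against 4 without scaling, with that percentile or by quantile normalization, 3 with *Hprt*, E1A or the deposited values, and 2 at 4-fold. For NM11 over Colon26, 4 were higher, against 2 without scaling and 1 with *Hprt*, E1A or 4-fold. Lower were 6, against 14 with *Hprt*, 10 with E1A and 2 at 4-fold. The cause was not tested.

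Over all genes, counts higher ranged from 1328 (normexp) to 3037 (deposited values) for LuM1 over Colon26, where the main count was 1821, from 966 (normexp) to 3581 (*Hprt*) for LuM1 over NM11 (main count 1534) and from 686 (*Hprt*) to 1872 (looser rule) for NM11 over Colon26 (main count 1198). Counts lower ranged from 874 to 2779 (main count 1731), from 498 to 2012 (main count 1357) and from 588 to 2727 (main count 1047). The medians of the lists changed sign in some settings. That of the VHL ligase list did so in 1 setting for LuM1 over Colon26 and 6 for LuM1 over NM11. That of the HIF modulators did so in 2 and 3 for these and 6 for NM11 over Colon26. That of the other oxygen-dependent enzymes did so in 3 for NM11 over Colon26, and that of the bHLH-PAS list in 3 for each comparison. That of the HIF targets did so in 0. No paired analysis was possible because each line had 1 array.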
